A study of Mus musculus with 24 samples.

Results

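The arrays compared here are the 15 of 24 on which Myh7, the slow myosin heavy chain of the fetal and overloaded ventricle, stood at a high level. PSPI is the submitters' name for an operation that overloads the right ventricle in both pressure and volume, and sham is the operated control. The arrays were chosen by a measured value: an array was taken where its brightest Myh7 probe had a log2 normalized signal above 3.5, a scale on which 0 is the array's 75th percentile over probes well above background on all 24 arrays. The rule left 11 PSPI arrays (2 of 5 from month 1, all 5 from month 2, all 4 from month 3) and 4 of 10 sham arrays, those numbered 6, 7, 8 and 9. All carried the strain label M/FVB/10-12, the tissue was the right ventricle of the heart, and no genotype or drug was given. The labels give no month for the shams, and nothing in them says that arrays came from separate mice, so each p-value reflects how far these arrays scatter, and that scatter may be technical.

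A loaded ventricle returns to part of its fetal program, with slow myosin, natriuretic peptides and skeletal actin, and that program is a readout of cardiomyocyte load rather than of inflammation. Interferon response genes are switched on through STAT and IRF factors that bind short GAAA-rich elements, and MHC class I genes, complement, chemokines and acute phase proteins are other arms of innate immunity. Immediate early genes such as Egr1 and Fos are transcribed within minutes of a stimulus.

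Myh7 chose the arrays, so its levels and those of its program are a description with no test. Myh7 was 4.73, 5.91, 5.18 and 4.95 on Sham 6 to 9 and 4.67 to 5.75 on the PSPI arrays (median 5.40), and the groups overlapped. The lowest array inside the rule was PSPI month 2 number 2 at 4.67 and the highest outside it was a month 1 PSPI array at 2.52. The 6 shams outside lay at 1.62 to 2.16. Of 16 genes of the hypertrophy and fetal program well above background on all 15 arrays, 11 had a higher mean with PSPI, and the median difference was 0.12. Nppa, which encodes atrial natriuretic peptide, was 4.83, 4.93, 4.67 and 4.49 on the shams and 4.64 to 6.01 with PSPI (median 5.58). Acta1, skeletal actin, was 3.70, 4.41, 4.22 and 3.92 on the shams and 1.42 to 5.21 with PSPI. The 4 shams thus carried the program at a level within or near the PSPI range.

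Between 36.1% and 56.1% of probes per array were well above background, and the number of arrays limits the precision. Ventricular cardiomyocyte markers, 8 of 8 well above background on all 15 arrays, averaged 4.90 to 5.79 on the shams and 4.88 to 6.38 with PSPI. The lung epithelium markers Sftpc and Sftpb and the skeletal markers Myh4 and Myh1 were above background on no array. Atrial cardiomyocyte markers, Nppa among them, averaged -3.56 to -1.54 on the shams and -3.30 to 0.480 with PSPI. The mean level of an atrial list lay above all 4 shams on 8 PSPI arrays and below them on 1. It was -0.510 to -0.0742 on the shams, 1.03 to 1.07 at month 1 and -0.517 to 0.106 at month 3. The part of atrial tissue in these results was not tested. Sham 6, 7 and 8 shared slide 1 with a single PSPI array, slide 2 held 5 PSPI arrays and no sham, and slide 3 held Sham 9 and 5 PSPI arrays, so slide and group are nearly tied. The first principal component (40.5% of the variance) set PSPI month 3 numbers 2, 3 and 4 (64.7, 61.2 and 41.9) apart from the other 12 arrays (-26.2 to 5.77).

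**Figure D1:**
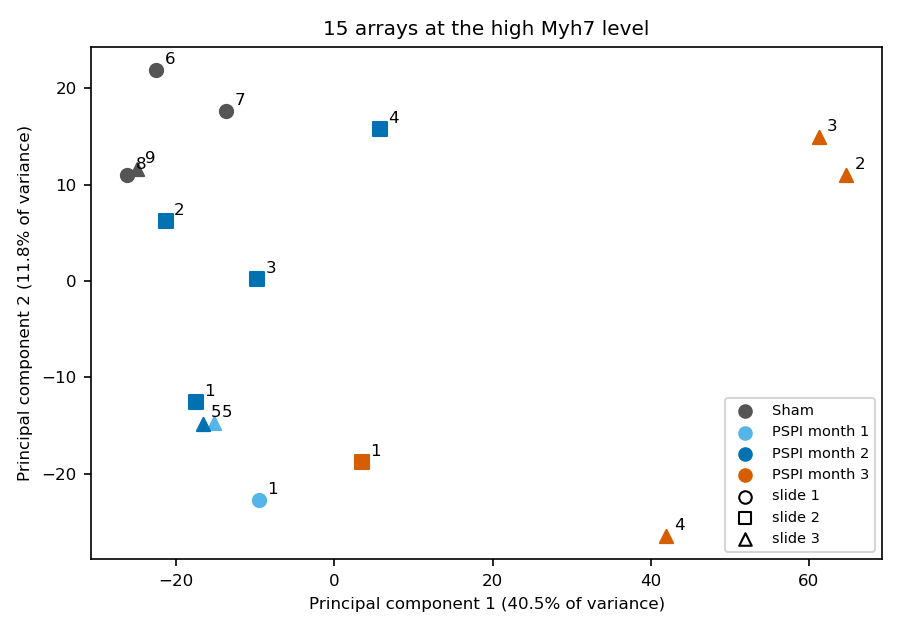
The 15 arrays at the high Myh7 level on principal component 1 (40.5% of the variance) and component 2 (11.8%), both in units of log2 signal; colour is the group, shape the slide and the number the replicate. Month 3 numbers 2, 3 and 4 lie at 41.9 to 64.7 on the first component, and all others at 5.77 or below.

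The first question was what distinguishes PSPI from sham once the Myh7 level is shared. With limma, 40 of 13006 genes passed an adjusted p of 0.05 (0.308% of those tested), 34 of them higher with PSPI (0.261%) and 6 lower (0.0461%). The higher genes differed by 0.49 to 2.56 on the log2 scale and included chemokine, complement, interferon-induced and myeloid genes, while 30 of the 40 belonged to none of the gene lists used here. The top of that range is Oas1f, which only 1 of the 4 shams measured above background. In 31 of the 40 no PSPI array overlapped the 4 shams, where over all genes 1.11% lay wholly above and 1.03% wholly below; the 40 were called on these same arrays, so this is a description. Of them 11 lay beyond all 10 shams, 9 above and 2 below (over all genes 0.346% lay above and 0.277% below). The count of calls for PSPI against sham at the high Myh7 level depended on the fit: 1 gene passed with near-coincident arrays averaged, 1 with slide as a block and 1 without Sham 7. All 40 kept their direction in each of those fits, which their selection on these same arrays made likely beforehand. Leaving out Sham 6 or Sham 9 left 7 or 5 calls, and leaving out any other array gave 6 to 64. Every adjusted p below is from limma with Benjamini-Hochberg adjustment over all 13006 genes, every ± is a standard error unless SD is written, and none of these 40 calls passed with slide as a block.

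**Figure D2:**
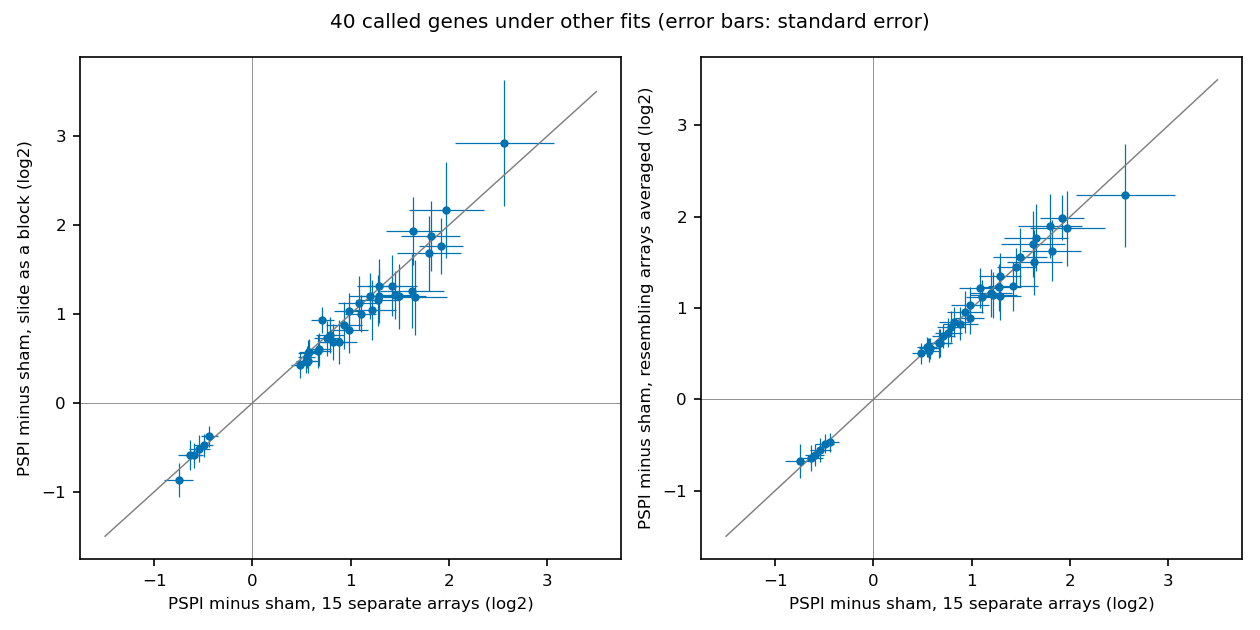
PSPI minus sham (log2, ± standard error) of the 40 called genes with 15 separate arrays on the horizontal axis, against the same difference with slide as a block (left) or with resembling arrays averaged (right); the grey diagonal marks equal values. Every point keeps its sign, which selection of the genes on these same arrays made likely. The median ratio to the first fit is 0.932 with slide as a block and 0.996 with arrays averaged.

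A pair of secreted proteins stood apart from the shams of both Myh7 levels. Ccl8, a chemokine that draws monocytes and is made by resident macrophages, was -1.92, -1.96, -2.30 and -2.01 on Sham 6 to 9 and -1.01 to 0.163 with PSPI (median -0.721). All 11 PSPI arrays lay above all 10 shams, whose low Myh7 members stood at -3.92 to -2.76. The difference was 1.45 ± 0.20 (2.74-fold, adjusted p 0.0130). Ccl8 is probed at mm9 chr11:81930108-81930167 on the plus strand; exon and UTR were not assigned for any probe. Apod, an apolipoprotein of the lipocalin family, was 1.02, 0.891, 1.06 and 0.864 on the shams and 1.55 to 2.77 with PSPI (median 2.10). It was also above all 10 shams on all 11 arrays, by 1.10 ± 0.16 (2.15-fold, adjusted p 0.0130); Apod was named after its values were seen.

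Further genes above all 10 shams on all 11 PSPI arrays were chosen after their values were seen. Fxyd5, a regulator of the sodium pump, was -1.14, -0.947, -0.892 and -1.09 on Sham 6 to 9 and -0.605 to 0.232 with PSPI, a difference of 0.79 ± 0.14 (adjusted p 0.0347). Adamtsl2, a matrix protein that binds fibrillin and limits TGF-β, was -3.93, -3.55, -3.53 and -3.99 against -3.32 to -2.82, a difference of 0.71 ± 0.12 (adjusted p 0.0305). Cela1, an elastase, rose by 1.29 ± 0.22 (adjusted p 0.0305) and Serpina3i, a serine protease inhibitor, by 1.22 ± 0.24 (adjusted p 0.0475), with 2 and 3 of 4 sham arrays well above background. Cela1 was well above background on only 3 of 5 month 2 and 2 of 4 month 3 arrays, so its difference rests partly on values near background. For these 4 genes the groups did not overlap.

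Zbp1, a sensor of Z-form nucleic acid that is itself interferon induced, was -7.82, -6.50, -7.10 and -6.76 on the shams, where no array was well above background, and -5.89 to -3.93 with PSPI, where all 11 were. It was at least 2.25-fold higher (adjusted p 0.0347). Having no sham above background, Zbp1 and F5 entered the test through PSPI groups alone. The same held for 14 other genes called higher, Retn and Oas1f among them, which some but not all of the 4 shams measured above background. The calls of all these genes carry that selection. F5, coagulation factor V, was also not well above background on any of the 4 shams and was on 9 PSPI arrays, at least 3.01-fold higher (adjusted p 0.0475). F5 at the low Myh7 level reached -4.55 on a sham, so it did not stand apart from all shams. Selp, the P-selectin of platelets and endothelium, rose by 1.19 ± 0.21 (adjusted p 0.0347), with 2 of 4 shams and 8 of 11 PSPI arrays above background.

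**Figure D3:**
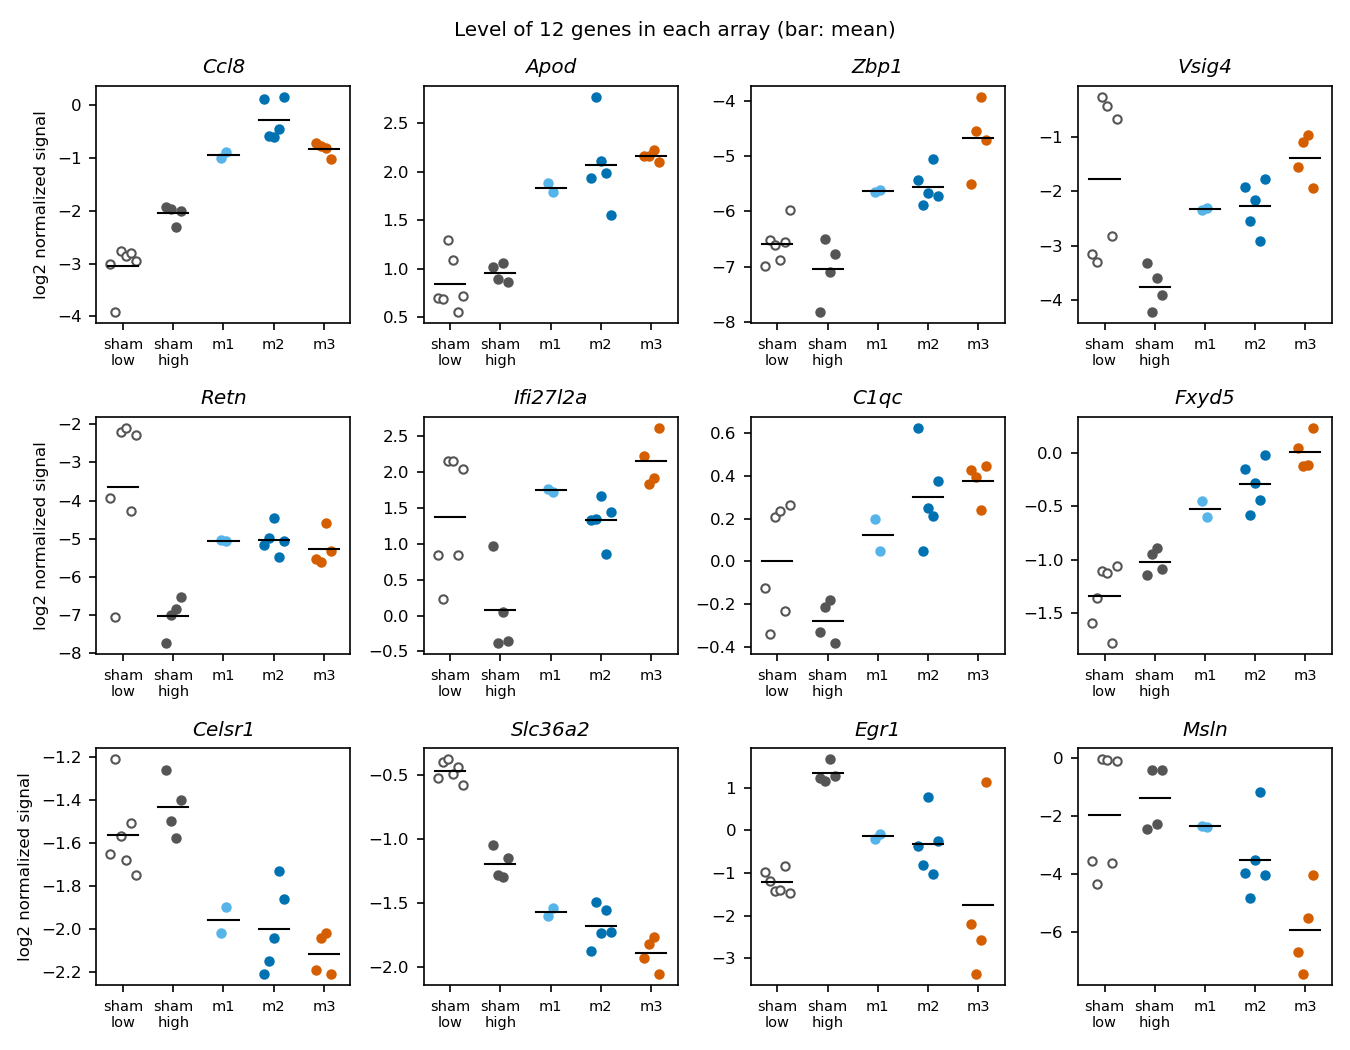
Log2 normalized signal of 12 genes on each array, with columns for low Myh7 shams (open circles, n = 6), high Myh7 shams (n = 4) and PSPI arrays at the high level of month 1 (m1, n = 2), month 2 (m2, n = 5) and month 3 (m3, n = 4); bars are means. Ccl8, Apod, Zbp1 and Fxyd5 lie above both kinds of sham on every PSPI array, whereas Retn, Vsig4, Ifi27l2a and C1qc overlap the low Myh7 shams.

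Other called genes were high against the 4 matched shams but not against all low Myh7 shams. Retn, which encodes the adipocyte hormone resistin, had the smallest adjusted p (0.00329), with -7.74, -7.01, -6.83 and -6.54 on Sham 6 to 9 and -5.61 to -4.45 with PSPI, a difference of 1.92 ± 0.22. Only 1 of the 4 shams and 9 of 11 PSPI arrays were well above background, and the low Myh7 shams averaged -3.64 ± 1.92 (SD, n = 6), with 5 of 6 above all PSPI arrays at the high level. Vsig4, a complement receptor of tissue macrophages, was -3.32, -4.23, -3.60 and -3.92 against -2.92 to -0.961, higher by 1.82 ± 0.30 (adjusted p 0.0305), while low Myh7 shams ranged from -3.30 to -0.258. Ifi27l2a, an interferon-induced mitochondrial protein, was 0.974, -0.385, 0.0539 and -0.354 against 0.854 to 2.62, higher by 1.63 ± 0.28 (adjusted p 0.0322), with low Myh7 shams at 0.233 to 2.16. The highest of these were Sham 3, 4 and 10, where the atrial muscle gene Mybphl stood at 1.73, 1.66 and 1.64. Ifi27l2a was 2.15, 2.16 and 2.05 there but 0.85, 0.233 and 0.851 on Sham 1, 2 and 5. Vsig4 was -0.258, -0.426 and -0.666 against -3.16, -3.30 and -2.83. Retn was also above all PSPI arrays at the high level on Sham 1 and 5 (-3.93 and -4.28). The part of atrial tissue was not tested. The shams are split here by a measured Myh7 level, so their difference was not tested.

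Other myeloid and complement genes rose by smaller amounts. Plac8, of leukocytes, rose by 1.42 ± 0.26 (adjusted p 0.0347) and Fpr1, the formyl peptide receptor of neutrophils and macrophages, by 1.29 ± 0.22 (adjusted p 0.0322), with 2 of 4 shams above background for each. Lyz1, a lysozyme, was -0.366, -0.460, -0.689 and -0.530 on the shams and -0.0609 to 0.771 with PSPI, higher by 0.76 ± 0.14 (adjusted p 0.0347). C1qc, a chain of the complement C1q trimer, was -0.332, -0.215, -0.179 and -0.384 against 0.0484 to 0.626, higher by 0.57 ± 0.10 (adjusted p 0.0347). Hpse, which cuts heparan sulfate and was named after its values were seen, rose by 1.28 ± 0.23 (adjusted p 0.0347). Low Myh7 shams reached -4.78 for Fpr1, 0.313 for Lyz1 and 0.266 for C1qc, inside the PSPI ranges. Only 2 (Fpr1), 4 (Lyz1) and 5 (C1qc) of 11 PSPI arrays lay above all 10 shams, against 10 for Plac8 and 9 for Hpse. Macrophage markers, 5 of 7 above background on all 15 arrays and Cd163 on none, averaged -3.63 to -3.03 on the shams and -3.22 to -2.36 with PSPI; their part in these results was not tested. In bulk tissue, more cells of a type and more RNA per cell cannot be told apart.

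Of genes outside the immune lists, Prg4, the lubricating glycoprotein lubricin, rose by 1.63 ± 0.32 (adjusted p 0.0475) with 10 of 11 PSPI arrays above all 4 shams. Ucp3, a mitochondrial uncoupling protein of muscle, rose by 0.67 ± 0.13 (adjusted p 0.0475), with 9 of 11 PSPI arrays above all 4 shams. Its PSPI range, -2.41 to -1.91, lay inside that of the low Myh7 shams, -2.62 to -1.70, and 0 PSPI arrays lay above all 10 shams. Cdh22, a cadherin, was -3.66, -3.59, -4.78 and -3.35 on the shams and -3.00 to -1.28 with PSPI, higher by 1.65 ± 0.33 (adjusted p 0.0475). Ifitm10, a relative of the interferon-induced membrane proteins, rose by 1.49 ± 0.27 (adjusted p 0.0347) with 2 of 4 shams above background, and Oas1f, of the oligoadenylate synthetase family, by 2.56 ± 0.51 (adjusted p 0.0475) with 1 of 4. PSPI arrays above all 10 shams numbered 10 for Prg4, 8 for Cdh22, 5 for Ifitm10 and 10 for Oas1f.

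The 6 lower genes belonged to none of the gene lists among the members above background on all 15 arrays. Celsr1, a planar polarity cadherin, was -1.26, -1.5, -1.58 and -1.40 on Sham 6 to 9 and -2.21 to -1.73 with PSPI, and fell by 0.60 ± 0.10 (adjusted p 0.0305). Fam131a, of little-known function, was 0.615, 0.101, 0.0985 and 0.225 against -0.624 to -0.100, and Slc36a2, a proton-coupled amino acid transporter, was -1.05, -1.28, -1.30 and -1.15 against -2.06 to -1.49. Both lay below all 10 shams on all 11 PSPI arrays, and they fell by 0.63 ± 0.12 and 0.54 ± 0.10 (adjusted p 0.0475 for each). Map4k4, a stress kinase of the MAP kinase cascade, fell by 0.50 ± 0.09 (adjusted p 0.0361), with low Myh7 shams at 0.845 to 1.16, inside the PSPI range of 0.689 to 1.16. Ago4, an Argonaute protein of the microRNA machinery, fell by 0.44 ± 0.09 (adjusted p 0.0475). The sixth, the unnamed gene model Gm13304, fell by 0.75 ± 0.15 (adjusted p 0.0475), with 10 of 11 PSPI arrays below all 4 shams.

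Gene groups are described by counts over members well above background on all 15 arrays, so that no member enters through 1 group alone. Among all 10635 such genes 46.2% had a higher PSPI mean, the median difference was -0.02, and 0.160% were called higher and 0.0564% lower. Of 45 listed interferon response genes 40 were kept and 34 entered the count; 32 had a higher PSPI mean and 1, Ifi27l2a, was called. The median difference was 0.41, and 0.29 without month 3 numbers 2 to 4. Of 18 MHC class I and antigen processing genes 15 had a higher mean (median 0.37, and 0.24 without month 3 numbers 2 to 4) and none was called by limma (unadjusted p under 0.05 for 8, all higher, as for 7.75% of all such genes). The macrophage and monocyte list had 21 of 22 higher (median 0.41, Lyz1 called), the complement list 14 of 18 (median 0.32, C1qc called), and the acute phase list 16 of 18 (median 0.28). Those 3 lists' medians without month 3 numbers 2 to 4 were 0.45, 0.37 and 0.26.

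**Figure D4:**
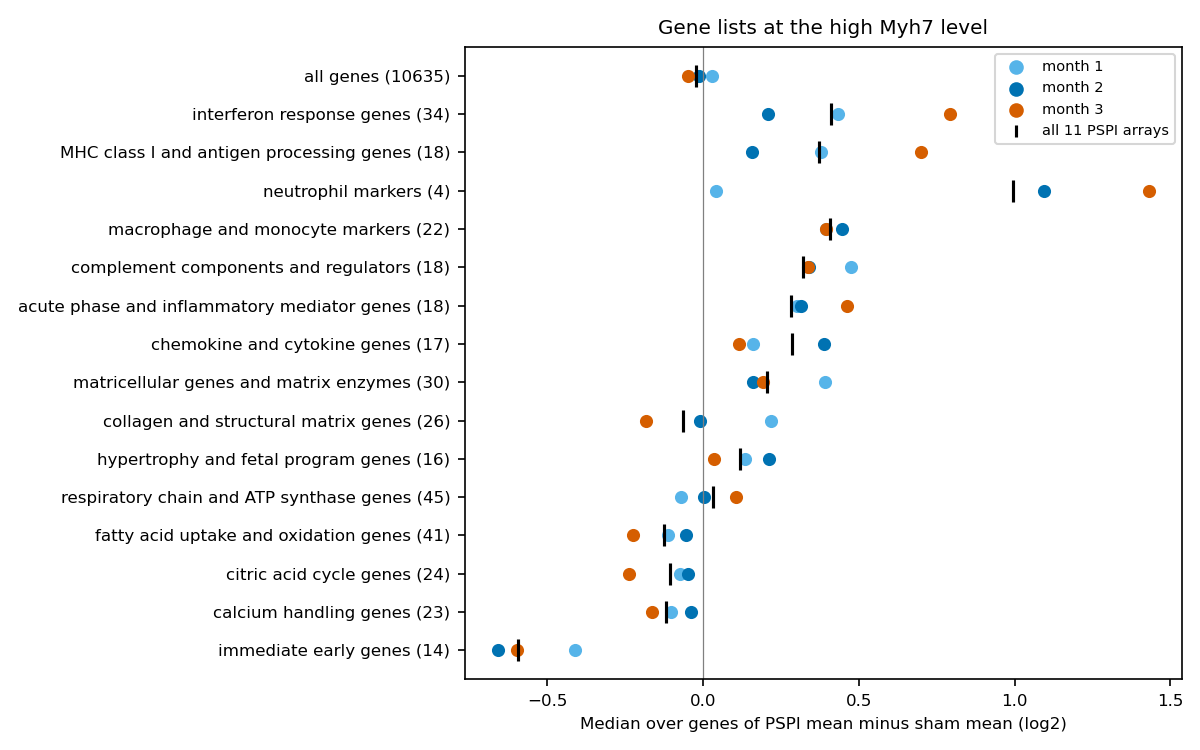
Median over the genes of each list (number of genes in brackets, all well above background on all 15 arrays) of PSPI mean minus sham mean on the log2 scale, for each month and for all 11 PSPI arrays. Interferon and MHC class I medians are 0.21 and 0.16 at month 2 and 0.79 and 0.70 at month 3, complement, macrophage and acute phase medians are above 0.25 at all months, and immediate early genes lie below 0.

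Of 18 complement genes 3 lay wholly above the 4 shams, and of 18 acute phase genes 3; some that missed the threshold are described here because they did so. C4b, a complement component, was -0.0895, 0.693, -1.55 and 0.465 on Sham 6 to 9 and 0.893 to 1.54 with PSPI, above all 10 shams (difference 1.31 ± 0.28, adjusted p 0.0608). Serping1, the C1 inhibitor, was 2.54, 2.91, 2.69 and 2.63 against 2.97 to 3.47 (0.52 ± 0.11, adjusted p 0.0589). Lbp, which binds bacterial lipopolysaccharide, differed by 1.10 ± 0.23 (adjusted p 0.0589) and Serpina3n, a protease inhibitor, by 1.34 ± 0.31 (adjusted p 0.0712). For each of these 4 genes all 11 PSPI arrays lay above all 4 shams, which held for 144 of 13006 genes (1.11%). The mean level of the acute phase list was -1.63 to -1.49 on the 4 shams and -1.26 to -0.698 on the 11 PSPI arrays, without overlap. This was not particular to that list. The antioxidant, metallothionein and iron storage list was also without overlap, at 0.717 to 0.804 on the shams and 0.830 to 0.987 with PSPI.

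No gene of the neutrophil list was called by limma over all months. Of its 4 members well above background on all 15 arrays, 2 had an unadjusted limma p under 0.05, both higher, as had 7.75% of all such genes. The median over those 4 was 1.00, with 0.04 at month 1, 1.10 at month 2 and 1.43 at month 3. S100a8 is not among them, since only 3 of the 4 shams measured it above background. S100a8, a subunit of calprotectin, was -5.47, -5.68, -5.75 and -6.05 on the shams and -5.09 to -2.71 with PSPI (median -3.78), above all 10 shams on all 11 arrays, a difference of 2.03 ± 0.44 (adjusted p 0.0638). Its partner S100a9 differed by 1.70 ± 0.45 (adjusted p 0.0973). Lcn2, lipocalin 2, differed by 1.33 ± 0.58 (adjusted p 0.262) with 9 PSPI arrays above and 1 below all 4 shams, and Csf3r, the G-CSF receptor, by 0.66 ± 0.36 (adjusted p 0.350) with 6 of 11 above. The lowest PSPI arrays for S100a8 were the month 1 pair at -5.09 and -4.91 and month 3 number 4 at -5.04. Neutrophil markers averaged -6.19 to -5.13 on the shams and -5.76 to -3.70 with PSPI, and their part was not tested; of them, Cxcr2, Mmp8 and Ngp were above background on no array.

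Interferon genes differed by month and among the shams. Ifit1, an RNA-binding antiviral protein, was -5.19, -6.35, -5.66 and -6.05 on Sham 6 to 9, -5.14 to -4.88 at month 2 and -3.68, -3.32, -3.54 and -2.68 at month 3. All 11 PSPI arrays lay above all 10 shams, with a difference of 1.55 ± 0.42 over all months (adjusted p 0.106), 0.80 at month 2 (adjusted p 0.146) and 2.51 at month 3 (adjusted p 2.03e-05). Oas1a, an oligoadenylate synthetase, was -2.02 and -2.41 on Sham 6 and 8 but -5.22 and -5.09 on Sham 7 and 9. The mean level of the 34 interferon genes was likewise -2.11 and -2.18 on Sham 6 and 8 and -2.73 and -2.68 on Sham 7 and 9, and -2.21 to -2.09 on the month 2 arrays. The month 2 arrays thus lay in the range of Sham 6 and 8 or just beside it.

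Stretches of promoter holding an interferon-type motif are shown for 4 of these genes, chosen among those that passed at month 3. In 300-base windows (250 bases before to 50 after the start) from RefSeq on GRCm38.p6, the motif GAAA, any 2 bases, GAAA on either strand was found in 17 of 31 kept interferon genes with a window (54.8%), against 1079 of 27025 genes in all (3.99%). Among all tested genes with a window 3.59% held it. Matches can overlap, and a match describes letters only. The stretches below all lie before the start, are read 5′ to 3′ on the gene's strand, and carry in capitals every base covered by a match.
Ifit1, chr19:34640765-34640833, plus strand: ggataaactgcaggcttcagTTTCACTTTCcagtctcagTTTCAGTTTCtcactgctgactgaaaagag
Isg15, chr4:156200855-156200916, minus strand: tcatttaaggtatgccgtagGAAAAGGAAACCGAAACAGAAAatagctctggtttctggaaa
Oas1a, chr5:120907526-120907565, minus strand: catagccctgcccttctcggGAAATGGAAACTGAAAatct
Igtp, chr11:58199502-58199551, plus strand: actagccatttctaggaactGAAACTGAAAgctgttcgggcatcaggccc
At month 3 these genes stood 2.51 (Ifit1), 1.24 (Isg15, a ubiquitin-like modifier), 2.90 (Oas1a) and 1.06 (Igtp, an interferon-induced GTPase) above the 4 shams, with limma adjusted p of 2.03e-05, 0.00897, 0.00571 and 0.0107. Low Myh7 shams reached -5.39 (Ifit1), -1.52 (Isg15) and -2.32 (Oas1a), below every month 3 array. For Igtp they lay at -1.53 to -0.626, inside the month 3 range of -1.54 to -0.388. Genes with the motif did not all pass: Rsad2 (-0.07, adjusted p 0.888), Gbp2 (0.38, adjusted p 0.0798), Gbp7 (0.62, adjusted p 0.0630), Ifitm2 (0.34, adjusted p 0.0814) and Stat2 (0.37, adjusted p 0.0962) missed the threshold at month 3. Of the 34 genes called higher over all months 1 of 30 with a window held the motif (3.33%).

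**Figure D5:**
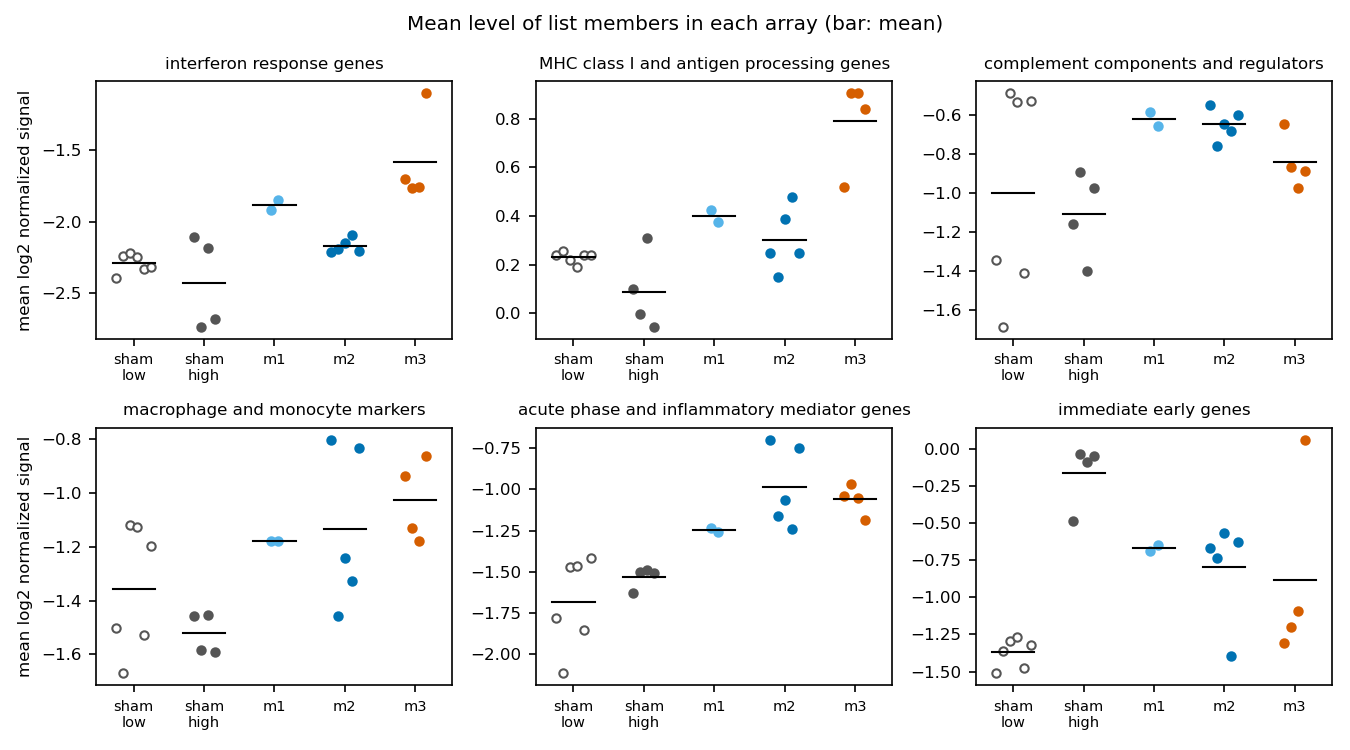
Mean log2 normalized signal of the members of 6 lists on each array, in the same columns as the gene plot (open circles are low Myh7 shams, bars are means). Acute phase levels of all 11 PSPI arrays lie above the 4 high Myh7 shams, the interferon levels of Sham 7 and 9 lie lowest at -2.73 and -2.68, and immediate early levels of the high Myh7 shams lie above the low Myh7 shams.

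Immediate early genes ran the other way. Of 14 members 2 had a higher PSPI mean, the median difference was -0.59, and none was called by limma (unadjusted p under 0.05 for 8, all lower, where 8.64% of all such genes were). Egr1, a zinc finger transcription factor, was 1.23, 1.17, 1.68 and 1.28 on Sham 6 to 9 and -3.37 to 1.14 with PSPI (median -0.354), with no overlap, a difference of -2.15 ± 0.65 (adjusted p 0.130). Dusp1, a phosphatase of MAP kinases, was -0.178, 0.0418, 0.0540 and 0.132 against -1.43 to -0.189 (-0.86 ± 0.21, adjusted p 0.0769). All 11 PSPI arrays of both genes lay below the 4 shams, as for 134 of 13006 genes (1.03%). The low Myh7 shams were also low, at -1.47 to -0.833 for Egr1, so the 4 matched shams were the high ones. Month 3 number 4 carried this list at 0.0625, above all 4 shams (-0.483 to -0.0319), while the other 10 PSPI arrays lay below them.

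Several lists had few or no calls over all months. Of 26 collagen and structural matrix genes 10 had a higher mean (median -0.06), Col1a1 was 1.96 ± 0.15 (SD, n = 4) on the shams and 1.96 ± 0.83 (SD, n = 11) with PSPI, and Col3a1 differed by -0.32 ± 0.37 (adjusted p 0.649). Postn, periostin of activated fibroblasts, differed by 0.50 ± 0.28 (adjusted p 0.365). Of 41 fatty acid genes 14 had a higher mean (median -0.13), with Ucp3 the 1 call, and the low Myh7 shams stood 0.45 above the high shams for the same list. At month 3, 11 of the 41 were called lower and 2 higher, where 13.8% and 10.7% of all genes above background were. Respiratory chain genes had 28 of 45 higher (median 0.03). The stress genes Hmox1 (0.58 ± 0.20, adjusted p 0.174) and Mt2 (0.67 ± 0.29, adjusted p 0.265) did not pass. The water channel Aqp1 (-1.23 ± 0.32, adjusted p 0.0917), the potassium channel Kcnd2 (-0.80 ± 0.23, adjusted p 0.122) and the beta-1 receptor Adrb1 (-0.50 ± 0.23, adjusted p 0.283) were below all 10 shams on 10, 10 and 9 of 11 PSPI arrays.

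The months were then set against the same 4 shams in a single model, so these comparisons share their controls. At month 2, 31 of 13006 genes were called (0.238%), 28 higher and 3 lower. The higher calls made up 0.215% and the lower 0.0231%. Ccl8 rose by 1.78 (adjusted p 0.000555), S100a8 by 2.33 (adjusted p 0.0320) and Nrgn, which encodes neurogranin, by 2.28 (adjusted p 0.0195). F5 (at least 4.06-fold, adjusted p 0.00780) and the platelet genes Gp1bb (at least 2.38-fold, adjusted p 0.0466) and Mpig6b (at least 3.17-fold, adjusted p 0.0456) were above background on none of the 4 shams, so they entered the test through PSPI groups alone. Without a month 2 or sham array the count ranged from 5 to 75. Mybphl, of atrial muscle, differed by 3.76 (adjusted p 0.0466), and the month 2 range of Mybphl, -4.88 to -0.906, lay inside that of the low Myh7 shams (-7.69 to 1.73). No call remained at month 2 with near-coincident arrays averaged or with slide as a block.

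For PSPI month 3 against sham at the high Myh7 level, 3240 genes were called (24.9%), 1603 higher (12.3%) and 1637 lower (12.6%), and the month 3 arrays that stand apart on the first component weigh in this count. It was 1165 with slide as a block and 780 with near-coincident arrays averaged, and 2010 without month 3 number 2, 2034 without number 3 and 2128 without Sham 9. The share of higher calls was 49.5% here, 22.5% when every probe entered the percentile, 28.7% after quantile normalization, 32.9% when normexp preceded it, 66.7% from the deposited table and 63.6% with dim probes kept. Of the 34 interferon genes 23 were called higher and none lower (10.7% of all genes above background were called higher, 13.8% lower), with a median of 0.79. Of 18 MHC class I genes 11 were called higher (median 0.70), among them B2m (0.87, adjusted p 0.00181) and H2-D1 (1.15, adjusted p 0.00157). Over the 4 other scalings the interferon median was 0.52 to 0.77 and the MHC class I median 0.51 to 0.705, against -0.24 to 0.05 for all genes. On month 3 number 1, which did not stand apart, the interferon median was 0.59 and the MHC class I median 0.37. H2, Oas1, Ifi27l2 and Serpina3 genes belong to families of near-identical copies, so a probe may read more than 1 of them.

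The difference between months was tested in the same model. Month 3 exceeded month 2 for 16 of the 34 interferon genes and 8 of the 18 MHC class I genes, with none in the other direction (7.09% of all genes above background were called higher and 9.10% lower). Month and slide are nearly tied, since 4 of 5 month 2 arrays lay on slide 2 and 3 of 4 month 3 arrays on slide 3. With slide as a block 0 interferon genes and 1 MHC class I gene passed in limma (113 of all 10635 genes were higher and 40 lower). The interferon median of the month difference was 0.69 without the block, 0.61 with it, 0.40 within slide 2 and 0.67 within slide 3; for MHC class I it was 0.49, 0.39, 0.13 and 0.49. Ifit1, which 3 of 4 shams measured above background and so is not among the 34, was 1.71 higher without the block (adjusted p 0.000426) and also passed with it. Msln and Muc16, mesothelin and a mucin of the mesothelium that covers the heart, were -4.53 (adjusted p 0.00209) and -3.62 (adjusted p 0.00713) against sham at month 3. Msln was -2.44, -0.420, -2.27 and -0.436 on the shams and -6.68, -7.45, -5.53 and -4.05 at month 3, with 1 of 4 month 3 arrays above background for each of Msln and Muc16, so their month 3 differences rest on values near background, while month 2 Msln reached -1.19 and low Myh7 shams ranged from -4.35 to -0.0326. Fos differed by -3.28 (adjusted p 0.00370) and Egr1 by -3.09 (adjusted p 0.00871) at month 3. On month 3 number 4 Fos stood at -2.74 and Egr1 at 1.14, much nearer the shams than the other 3 arrays. Of 11 mesothelial and epicardial genes kept, 3 had a higher PSPI mean over all months (median -0.83). At month 3, 4 were called lower and 1 higher, where 12.6% and 12.3% of all genes tested were. Some of the 11, such as Msln and Muc16, were near background at month 3. Of the other members, 5 were above background on all 15 arrays and 3 of those had a higher PSPI mean (median 0.50), with Prg4 called higher. Orly and Sly, multicopy genes expressed in testis, and the odorant receptor Olfr39 were above background on none of the 4 shams and on all 4 month 3 arrays, through which they entered the test. They were at least 18.1-fold (Orly), 14.0-fold (Sly) and 9.12-fold (Olfr39) higher at month 3. The Orly and Sly probes lie on mm9 chrY_random and the Olfr39 probe on chr9. Orly was -3.04, -2.34, -2.33 and -1.39 on the month 3 arrays and -8.04 to -5.87 at month 2. The share of probes above background on the same month 3 arrays was 41.7%, 38.6%, 36.2% and 56.1%.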

How the data were processed

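Per the file headers, the arrays were 60-base Agilent 1-colour arrays on mm9 read with Agilent Feature Extraction 10.7.3.1. The authors deposited intensity values per spot, background subtracted and not scaled between arrays; their deposited table equals the net signal. Here, outlier and control spots were dropped, probes averaged, and log2 processed signals reduced by the array's 75th percentile, taken over 16946 probes that every array measured well above background. A probe was kept if all arrays of some group measured it well above background, and each of 13006 genes was read from its brightest kept probe; 3 lacked a value on 1 array. Tests used limma 3.58.1 in R 4.3.3. The design called for averaging 4 near-coincident pairs if they were the 4 closest; by root mean square distance they ranked 1, 5, 10 and 17, so arrays stayed separate. The distance had not been specified and both fits' counts were known by then. On simulated data with 13006 genes the comparison of all months recovered 74 of 100 changes of 1 on the log2 scale. It recovered 96 of 100 changes of 2, with 6 false calls of 176. These counts hold for the simulated noise only. How slide or resembling arrays affect the calls on the real arrays cannot be read from them, so they do not measure how reliable those calls are. The members and the lists were chosen with earlier results of these data known. The text names part of the genes that a rule picks: the largest called changes, up to 4 smallest-p members of each list and some genes always. Tests describe labels within arrays picked by a measured level.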

Additional observations from a re-analysis of the deposited data

Results flagged for a closer look

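Of 291 groups of 4 or 5 arrays checked for the genes named, 12 (4.12%) held an array far from the others, where chance gives about 1 in 20. On month 3 number 4, S100a8 was low at -5.04, S100a9 at -2.95, and Klf2 high at 1.75, Fos at -2.74 and Oasl1 at -2.13. On month 2 number 4, Klf2 was low at 0.0775, Muc16 high at -1.41 and Nkain4 high at -2.50. Month 3 number 1 was high for Hmox1 at -1.13, Sham 8 was high for Ifitm3 at 0.579, and Sham 6 was low for Syt13 at -6.06 and for Cela1 at -7.69.

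The month 3 and month 2 differences from sham differed in limma for 24 of 89 genes tested among those named (2169 of 13006 over all genes). Month 3 was lower for Mybphl (-3.42), Msln (-2.42), Fos (-2.03), Mpig6b (-1.99), Nrgn (-1.54), F5 (-1.20), Kcnd2 (-0.68), Ccl8 (-0.56) and Etfdh (-0.39). It was higher for Gpatch8 (0.35), B2m (0.46), H2-Q6 (0.68), H2-D1 (0.68), Cdkn1a (0.77), Igtp (0.79), Ifi27l2a (0.82) and Vsig4 (0.88). It was also higher for Csf3r (1.30), Oasl1 (1.60), Ifit1 (1.71), Cxcl13 (2.17), Olfr39 (4.23), Sly (4.47) and Orly (4.90), the last 3 of which only 1 of 5 month 2 arrays measured above background, so that their sizes are not well defined. With slide as a block all 24 kept their direction and 4 passed (Ifit1, Olfr39, Sly and Orly).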

How the results depend on the processing

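For PSPI against sham at the high Myh7 level (40 calls) the count was 1 with near-coincident arrays averaged, 3 with the pair as a random block, 1 with slide as a block, 9 with the percentile over all probes (77.8% higher), 3 with quantile normalization (100%), 11 with normexp (63.6%), 10 with the deposited table (100%, against 85.0%), 1 with no filter, 23 with probes above background on all 15 arrays, 697 with array weights, 404 with equal month weights, 75 without month 1, 0 within slide 3 (330 genes at an unadjusted p under 0.05 in limma) and 83 within slide 1, where the lone PSPI array is assumed to vary like the shams and 1 call is shared; leaving out 1 array gave 1 to 64, with 7, 1, 20 and 5 without Sham 6, 7, 8 and 9, 12, 64, 11 and 6 without month 2 numbers 1, 2, 3 and 5, and 14, 26 and 11 without month 3 numbers 1, 2 and 3. For PSPI month 2 against sham at the high Myh7 level (31 calls) the counts in that order of settings were 0 (1181 unadjusted), 3, 0 (918 unadjusted), and 16, 13, 10 and 6 with quantile, normexp, deposited table and no filter, 747 with array weights, 58 with trend and robust, and 5 to 82 leaving out 1 array (7, 6 and 9 without Sham 6, 7 and 9, 11 without either month 1 array, 5, 68, 6, 75 and 8 without month 2 numbers 1 to 5, and 51, 17 and 82 without month 3 numbers 1, 2 and 4). For PSPI month 3 against sham at the high Myh7 level (3240 calls) they were 780, 1335 and 1165, 6155 with array weights, and 2010 to 4854. Averaging and leaving out month 3 numbers 2 to 4 (52 calls, 21 shared) were chosen after seeing the data, as was slide as a block for the difference between months. All 40 called genes kept their direction in every fit run that gave them a value (23 of 23 with probes above background on all 15 arrays). They were selected on these same arrays, so a change of sign was unlikely beforehand. The percentile over all probes moved the median of all genes by -0.12 and no filter by 0.12. Col1a1 changed sign, to 0.065 with arrays averaged, 0.048 with the pair block, 0.26 with array weights, 0.015 with equal months, 0.35 within slide 1, 0.32 without month 3 numbers 2 to 4, and 0.0051 to 0.16 leaving out 1 array; within slide 1 Col3a1 was 0.066, Lcn2 -0.12 and Mt2 -0.47. The cause was not tested. No paired analysis was possible because the shams carry numbers 6 to 9 and the PSPI arrays 1 to 5.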

Other observations

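Some genes of other lists lay above all 10 shams on all 11 PSPI arrays without passing the threshold. Cdkn1a, the p21 inhibitor of the cell cycle, was -2.87, -2.23, -2.05 and -2.44 on Sham 6 to 9 and -2.04 to -0.421 with PSPI (0.93 ± 0.27, limma adjusted p 0.118). Sfrp1, a secreted Wnt antagonist, differed by 0.84 ± 0.18 (adjusted p 0.0586), Cx3cl1, the chemokine fractalkine, by 0.46 ± 0.12 (adjusted p 0.0857), and Syt13, a synaptotagmin, by 1.83 ± 0.45 (adjusted p 0.0782).

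Mup18, a major urinary protein that liver makes, was 0.659, -1.97, -6.64 and -2.02 on Sham 6 to 9, whereas the 6 low Myh7 shams ranged from -8.69 to -7.20 and the PSPI arrays from -8.65 to -4.80 (difference -4.34 ± 0.98, limma adjusted p 0.0679). Its level on Sham 6 was the highest of all 24 arrays.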
